A study of Drosophila melanogaster with 12 samples.

Results

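The vacuolar proton pump genes of Drosophila melanogaster were taken from the exon count table as every gene whose name begins with the 3 letters Vha, and the exon entries of a gene were summed. The rule found 31 genes among 16413 gene names and 150 exon entries among 82004. It used names and no measured value. The genes were placed by subunit from textbook knowledge: 13 encode parts of the cytosolic V1 sector and 18 parts of the membrane V0 sector or its accessory proteins.

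The vacuolar proton pump (V-ATPase) is a rotary machine: V1 splits ATP and turns a central stalk, and V0 carries protons across the membrane through a ring of small proteolipids beside the large subunit a. It acidifies lysosomes and other compartments in every cell, energises ion transport in the Malpighian tubules (the insect kidney) and drives acid secretion by the copper cells of the midgut. In flies most subunits have 1 widely expressed gene, and several have additional paralogs known mainly from testis or from single epithelia.

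Poly(A) RNA of whole larvae, given as 3rd instar, was sequenced in 4 groups of 3 libraries (A, B and C). Wild-type control larvae and mlx1 mutants (Mlx -/-) were moved to new food after growing on plates of 10% yeast. The low sugar groups received 10% yeast again and were collected at 1.5 hours. The high sugar groups received 10% yeast with 20% sucrose and were collected at 8 hours, so the diet and the time on new food cannot be told apart. Mlx binds DNA together with Mondo, a transcription factor that responds to sugar. Beyond the name mlx1, no allele, control strain or number of larvae per library was given in the sources used here. Larvae that did not feed were removed in all groups. The column names abbreviate the time of the low sugar groups to 1 hour and carry a code, unexplained, that also separates the diets. Nothing states that the libraries came from separate cultures, so p-values measure the spread between libraries, which may be technical.

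Library totals ran from 8923055 to 12506335 counts, and 10045 genes had enough counts to be tested. Transcripts of Mlx, named bigmax in the table, averaged 27 ± 0.73 CPM (read counts scaled to a common library size, with TMM; SD, n = 3) for wild type on low sugar and 32.6 ± 1.92 CPM on high sugar. The mutants had 0.694 ± 0.201 and 0.893 ± 0.168 CPM, which goes with the genotype labels. One feature of the libraries touches the pump genes: coverage along transcripts. For 2872 other genes the median log2 ratio of counts in upstream entries to counts in the 3′ entry, each gene centred on its mean, was 0.02, -0.12 and -0.18 in wild type on low sugar and 0.04, 0.2 and 0.05 on high sugar. In mlx1 mutants it was 0.2, -0.05 and -0.04 on low sugar and -0.01, 0.02 and -0.14 on high sugar (libraries A, B and C in each case). A low ratio means fewer reads from the upstream part of transcripts. In wild type every high sugar ratio lay above every low sugar ratio, the closest being 0.02 and 0.04, so there coverage and diet are partly mixed. This ratio was examined after the pump values were seen. The counts of called pump genes, their medians and some single genes are given below with and without it as a covariate.

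Together the 31 genes took between 1.49% and 2.22% of all counts. In wild type their summed level was 18100, 15500 and 15100 CPM on low sugar and 18900, 22600 and 21600 CPM on high sugar. In mlx1 mutants it was 20900, 16800 and 19900 CPM on low sugar and 18400, 19500 and 15400 CPM on high sugar. The wild-type groups did not overlap and the mutant groups did. The 3 libraries with the lowest sums, wild type low sugar C and B and mlx1 high sugar C, were also the 3 with the lowest upstream to 3′ ratios, as the plot of the sum against that ratio shows. The part of coverage in the pump values was examined only by the covariate and by single entries, below.

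**Figure D1:**
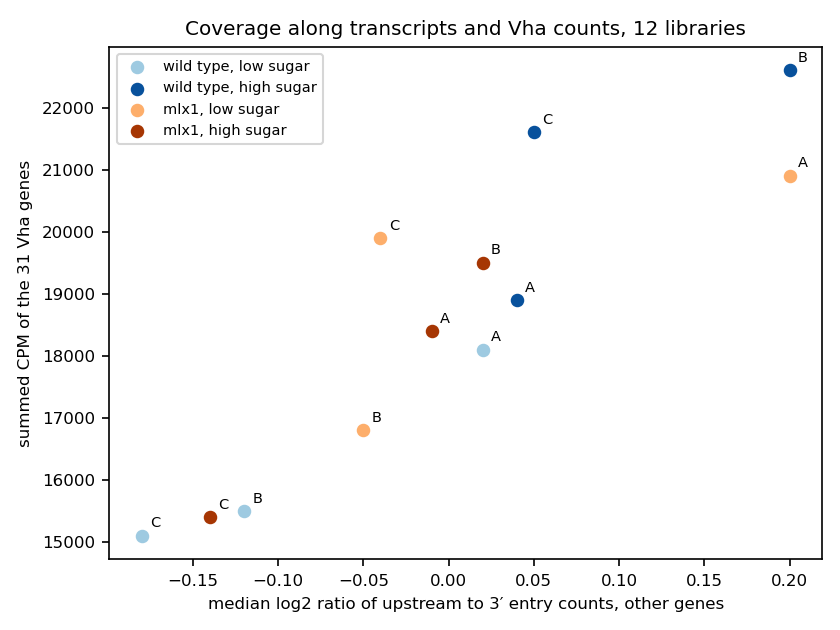
Summed level of the 31 Vha genes (CPM, y axis, which does not start at 0) against the median log2 ratio of upstream to 3′ entry counts of 2872 other genes (x axis), 1 point per library with its letter. The libraries at -0.12 and below hold the 3 lowest sums, up to 15500 CPM, and the libraries at 0.2 have 20900 and 22600 CPM.

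Subunit levels were compared per kilobase of exon length, as CPM per kilobase averaged over the 12 libraries. Vha16-1, the proteolipid c of the V0 ring, present in many copies in each pump, was highest at 2480 (range 1920 to 3160). Next came 3 V1 genes: Vha13 (subunit G, peripheral stalk) at 1200, Vha26 (subunit E, peripheral stalk) at 961 and Vha68-2 (subunit A, which holds the catalytic site) at 740. Vha55, the nucleotide-binding subunit B that alternates with A, stood at 500. A middle tier held VhaAC39-1 (subunit d, which joins the stalk to the ring) at 427, Vha14-1 (subunit F, central stalk) at 413, Vha36-1 (subunit D, central stalk) at 376 and VhaM8.9 (the accessory protein ATP6AP2) at 369.

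With all entries counted, lower levels followed for genes of both sectors. VhaPPA1-1, the second ring proteolipid c'', stood at 202, Vha44 (subunit C, which links the peripheral stalks to subunit a) at 199 and Vha100-2 (subunit a, which forms the proton path with the ring) at 182 CPM per kilobase. VhaSFD (subunit H, known in yeast to silence V1 that has come off V0) stood at 98.2, VhaM9.7-b (the small membrane subunit e) at 59.5 and VhaAC45 (the accessory protein Ac45) at 41.5. Some of these are underestimates: 63 of the 150 entries overlap another entry, and 38 of these 63 hold 0 counts in all libraries while their length enters the denominator. Without overlapping entries VhaAC45 stood at 222, VhaM9.7-b at 265, VhaPPA1-1 at 405, VhaSFD at 172 and Vha55 at 757 CPM per kilobase. Vha44 stood at 168, below VhaAC45 and VhaM9.7-b, and VhaPPA1-1 lay among the middle tier.

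**Figure D2:**
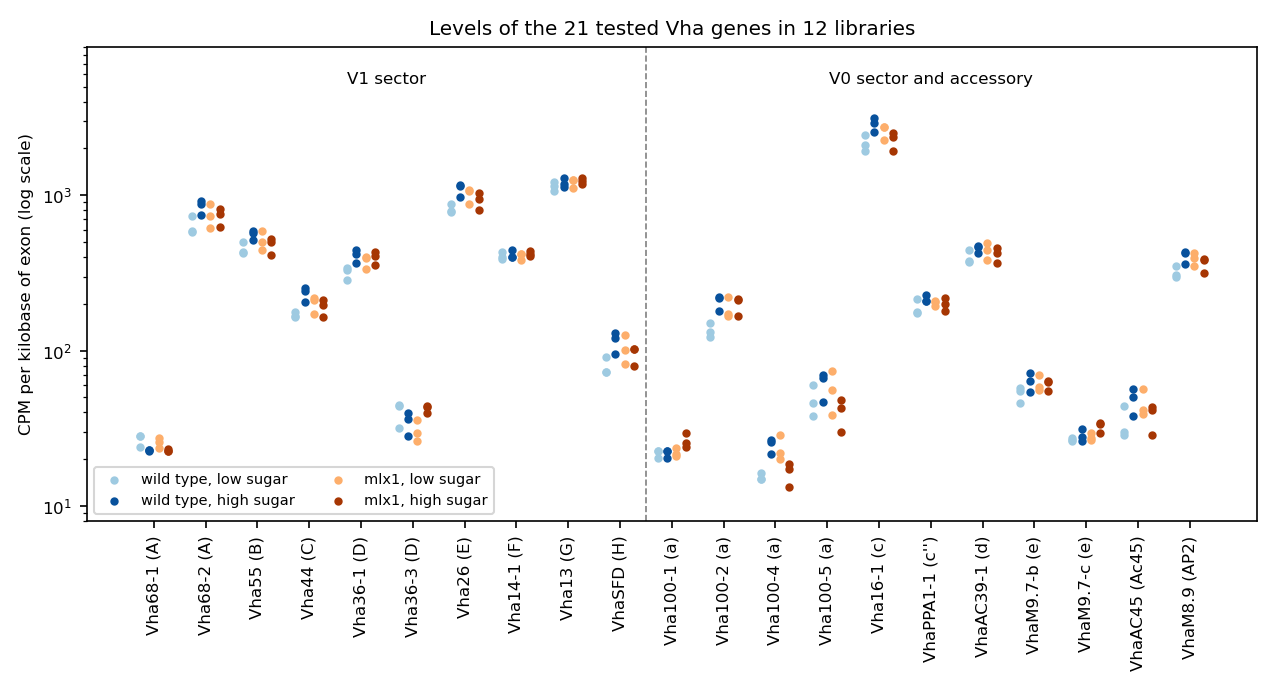
Level of each of the 21 tested Vha genes in the 12 libraries (CPM per kilobase of exon, log scale), ordered by sector and subunit (letter in brackets), with points coloured by group. Vha16-1 lies highest, from 1920 to 3160, and Vha100-4 reaches lowest, at 13.2.

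Of the 13 genes listed as restricted paralogs, 4 had enough counts to be tested, against 17 of the 18 listed as widely expressed. The untested widely listed gene was VhaM9.7-a, a subunit e paralog with 6 counts in all libraries together. The other 9 untested genes were Vha68-3 (61 counts in all), Vha14-2 (19), VhaAC39-2 (12), Vha100-3 (10), VhaPPA1-2 (6), Vha16-5 (2), Vha36-2 (2), Vha16-2 (0) and Vha16-3 (0). Low counts here need not mean low expression for 4 of the 10: all entries of Vha14-2 and VhaPPA1-2 overlap another entry, and Vha16-3 and VhaM9.7-a have 55 and 43 bases free of overlap, so reads there may not have been counted. Most of these genes are known as testis paralogs, and of 13 genes fixed as male germline markers 4 had enough counts to be tested. A count of 0 in all 12 libraries allows up to 0.0244 CPM over the 122878207 counts, counting error only. Reads of near-identical paralogs may have been split or lost in the authors' counting. Of 3 pump paralogs whose table names do not begin with Vha, CG31030 (now VhaAC45RP) had a mean of 5.65 CPM, and CG9013 (Vha16-4) and CG14909 (VhaM9.7-d) had 1 and 4 counts in all.

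Within subunit a, Vha100-2 made up 60.7% to 71.2% of the summed level per kilobase across the libraries, Vha100-5 12.8% to 24.2%, Vha100-1 (the form known from neurons) 6.66% to 11.4% and Vha100-4 5.68% to 10.3%. Vha36-3 supplied 6.15% to 13.3% of subunit D, beside Vha36-1. Vha68-1 supplied 2.38% to 4.66% of subunit A, beside Vha68-2. So 1 gene held most of the level in each of these subunits. For subunit e the split depended on the entries used: VhaM9.7-c supplied 27.5% to 38.4% with all entries but a mean of 9.88% without overlapping ones.

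The effect of the diet in wild type asks which pump genes differed between larvae 8 hours on high sugar and larvae 1.5 hours on low sugar. A gene was called when its Benjamini-Hochberg adjusted p in edgeR's quasi-likelihood test, over all 10045 genes, was below 0.05. On high sugar 7 of the 21 tested pump genes rose and 0 fell, beside 11.5% of all tested genes called higher and 11.6% called lower. At an unadjusted p below 0.05, 11 were higher and 1 lower. DESeq2 called 10 higher and 0 lower, beside 2628 of 9840 genes called in either direction. Shares over all genes at an unadjusted p are not given here or below. The median log2 difference of the 21 was 0.34 against -0.051 for all genes, and 19 of 21 values were positive. In whole larvae, more RNA per cell and more cells of a type cannot be told apart.

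Among the V1 genes 4 of 10 rose. Vha44 (subunit C) stood at 716, 660 and 667 CPM on low sugar and 833, 1020 and 971 on high sugar in wild type, a log2 difference of 0.47 ± 0.13 (SE; adjusted p = 0.0205). Vha26 (subunit E) stood at 1990, 1770 and 1810 CPM on low sugar and 2220, 2640 and 2580 on high sugar, a difference of 0.42 ± 0.12 (adjusted p = 0.0263). In both genes each high sugar library lay above each low sugar library, and library A on high sugar was the lowest of its group. Vha36-1 (subunit D) stood at 362, 305 and 350 CPM on low and 391, 446 and 474 on high sugar, a difference of 0.37 ± 0.12 (adjusted p = 0.043). VhaSFD (subunit H) stood at 258, 206 and 206 CPM on low and 269, 366 and 342 on high sugar, a difference of 0.54 ± 0.18 (adjusted p = 0.046). Here too the groups did not overlap, but for VhaSFD the closest libraries, both A, were 258 and 269 CPM.

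The remaining V1 genes were not called. Vha68-2, the leading subunit A gene, had 1760 ± 247 CPM on low and 2340 ± 254 on high sugar (mean ± SD, n = 3; log2 0.41 ± 0.15, adjusted p = 0.0763), and Vha55 had 1260 ± 122 and 1550 ± 110 CPM (0.3 ± 0.13, adjusted p = 0.12). In both genes the groups did not overlap, and the difference of Vha68-2 was as large as that of Vha16-1, which was called. The closest libraries, low and high sugar A, were 2040 and 2050 CPM for Vha68-2 and 1400 and 1430 CPM for Vha55. Vha13 differed by 0.08 ± 0.09 (95% interval -0.14 to 0.29) and Vha14-1 by 0.03 ± 0.09 (-0.17 to 0.24), so subunits G and F showed the smallest V1 differences. The other stalk subunits E and D, given above, were called higher. The minor paralogs Vha68-1 and Vha36-3 had the only negative values, -0.24 ± 0.09 (adjusted p = 0.0814) and -0.21 ± 0.16 (adjusted p = 0.379).

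Of the 11 tested V0 and accessory genes 3 rose. Vha100-2, the main subunit a, stood at 486, 394 and 426 CPM on low and 583, 717 and 707 on high sugar, a log2 difference of 0.62 ± 0.15 (1.54-fold, adjusted p = 0.0105). Vha16-1, the ring proteolipid, stood at 7570, 6520 and 5900 CPM on low and 7900, 9710 and 8920 on high sugar, a difference of 0.41 ± 0.14 (adjusted p = 0.0474). For Vha16-1 library A again brought the groups close together, at 7570 and 7900 CPM. Vha100-4, the minor subunit a paralog that also rose, is described below. VhaM8.9 had 469 ± 43.1 and 595 ± 57.6 CPM (0.34 ± 0.12, adjusted p = 0.0622) and VhaAC45 had 68.7 ± 17.1 and 96.9 ± 18.7 CPM (0.5 ± 0.22, adjusted p = 0.132). The other V0 genes, VhaPPA1-1, VhaAC39-1, VhaM9.7-b, VhaM9.7-c, Vha100-1 and Vha100-5, had differences between 0.01 and 0.34 and adjusted p from 0.184 to 0.964.

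**Figure D3:**
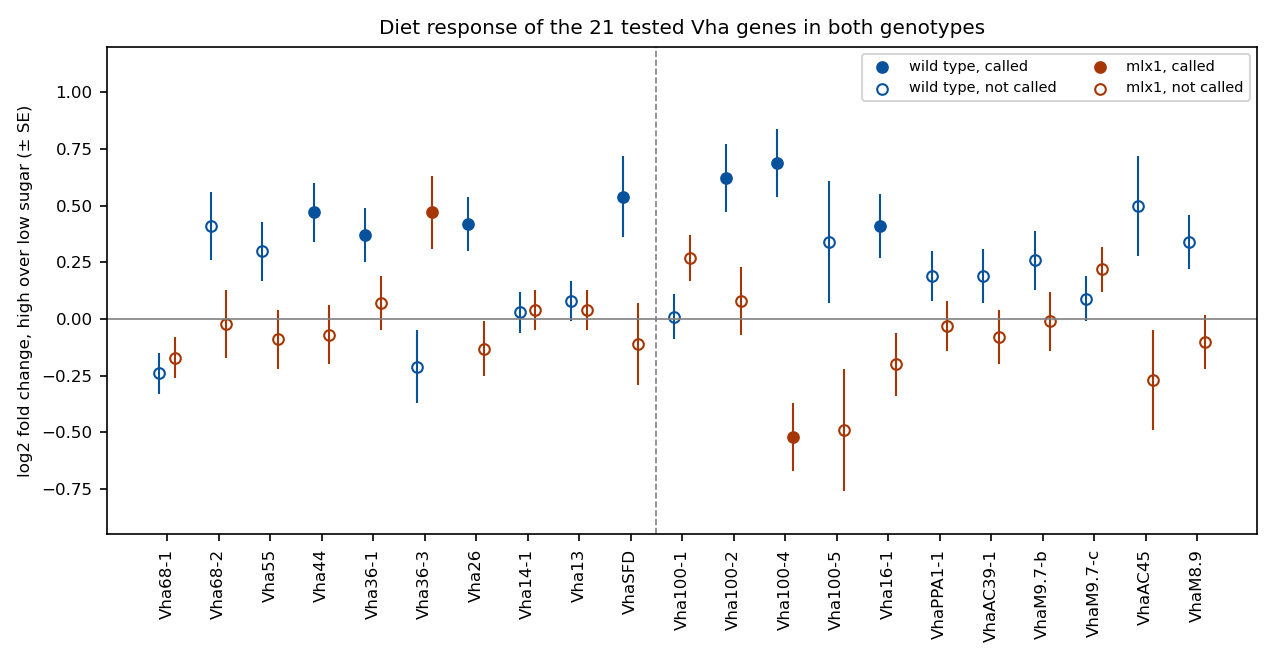
Log2 fold change of high over low sugar (± SE) for the 21 tested Vha genes in wild type (blue) and mlx1 mutants (brown), V1 left and V0 right of the dashed line; filled points are called. In wild type 19 values are positive and 7 are called; in the mutants Vha36-3 (0.47) and Vha100-4 (-0.52) are called.

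Set side by side, 6 of the 17 tested widely expressed genes were called higher in wild type (median 0.34) and 1 of the 4 tested restricted ones (median 0.22). In the mutants edgeR called 0 of the 17, and 2 of the 4, 1 in each direction. Of these 2 calls, Vha36-3 was held in 8 of 23 alternatives and Vha100-4 in 19 of 23. Over all tested genes 11.5% were called higher and 11.6% lower in wild type, and 13.5% and 15.7% in mutants. With CG31030, a restricted paralog whose table name does not begin with Vha, 5 restricted genes were tested and their wild-type median was 0.09, with 1 called higher. CG31030 itself differed by -0.29 in wild type, not called. Both classes are small and were tested unequally, and their difference was not tested.

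The number of pump genes called in wild type changed with single libraries and with the coverage covariate. It was 1 without wild type low sugar B, 2 without low sugar C, 2 without high sugar B and 2 without high sugar C, and 11 without low sugar A (10 higher, 1 lower), and 4 without mlx1 low sugar C or mlx1 high sugar A. Calls over all genes in these fits ran from 1423 to 2361. With the upstream to 3′ ratio as a covariate edgeR called 0 of 21 (2 higher at an unadjusted p below 0.05) and the median fell to 0.09, while calls over all genes went from 2318 to 1751. That fit takes a single slope for the ratio from the spread of libraries within the 4 groups. In wild type the ratio also differed between the diets, with the closest libraries, both A, at 0.02 and 0.04. The part of coverage in the diet difference was not tested beyond this. Vha100-4 and Vha100-2 stood at 0.61 and 0.33 in the fit with that covariate (adjusted p = 0.0526 and 0.0767). With counts of the last non-overlapping 3′ entry of each gene alone, 6 pump genes were called and the median was 0.36. Cuticle genes moved too: of 104 tested (129 listed) 24 were lower and 2 higher on high sugar in wild type, beside 11.6% and 11.5% of all tested genes. Their summed level was 32000 to 72800 CPM on low and 15700 to 27500 on high sugar. With their mean as a covariate 4 pump genes were called (median 0.17), beside 2996 calls over all genes. The part of tissue makeup in the result was not tested beyond this.

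In mlx1 mutants the same comparison of diets called 1 pump gene higher and 1 lower, beside 13.5% of all tested genes higher and 15.7% lower. DESeq2 called 2 higher and 1 lower, beside 3135 of 10035 genes called in either direction. At an unadjusted p below 0.05, 2 were higher and 1 lower. The median was -0.07, and 7 of 21 values were positive. Leaving out 1 library it ran from -0.19 (without mlx1 high sugar B) to 0.02 (without mlx1 high sugar C). With the coverage covariate the median was 0.02 and 13 of 21 values were positive. In that fit edgeR called 1 higher and 1 lower, beside 3096 of 10045 genes in either direction. Vha36-3, the minor subunit D paralog, stood at 30, 40.8 and 33.7 CPM on low and 49.1, 45.3 and 49.9 on high sugar, a log2 difference of 0.47 ± 0.16 (adjusted p = 0.0494). The mutant groups did not overlap, while in wild type its values, 51, 49.8 and 36.4 on low and 45, 32.2 and 41.5 on high sugar, did. The call for Vha36-3 was held in 8 of 23 alternatives and lost without any 1 of 8 libraries. The genes called in wild type other than Vha100-4 had mutant differences from -0.2 (Vha16-1) to 0.08 (Vha100-2), none of them called.

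Between genotypes on low sugar, 1 of 21 pump genes was called higher in the mutants and 0 lower, beside 1.82% and 1.77% of all tested genes. At an unadjusted p below 0.05, 4 were higher and 1 lower. DESeq2 called 2 higher and 0 lower, beside 653 of 10035 genes called in either direction. With the replicate letters as a block edgeR called 0 (4 higher and 0 lower at an unadjusted p below 0.05). That block fits letter effects shared by all 12 libraries, so it is not a paired test of this comparison alone. The gene called without the block was Vha100-4. The median of the 21 was 0.22, and 19 were positive. With the coverage covariate the median was 0.06 and 15 were positive, and edgeR called 0, beside 291 of 10045 genes. On high sugar 0 were called higher and 1 lower in the mutants, again Vha100-4, beside 6.8% and 7.06% of all tested genes, with a median of -0.13. Here 1 was higher and 4 lower at an unadjusted p below 0.05. DESeq2 called the same number as edgeR, beside 1668 of 10035 genes called in either direction. With the coverage covariate the high sugar median was 0.01 and 11 values were positive. In that fit edgeR called 1 higher and 0 lower, beside 1193 of 10045 genes in either direction. The wild-type low sugar group serves both the diet and the genotype comparison, so these values are not independent of the diet values above.

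The interaction asks whether the diet difference itself depended on the genotype. It was called for 1 of 21 pump genes as lower in the mutants and for 0 as higher, beside 3.57% and 3.32% of all tested genes. At an unadjusted p below 0.05, 8 were lower and 1 higher. DESeq2 called 4 lower and 0 higher, beside 1202 of 9256 genes called in either direction. The median of the 21 values was -0.39 against 0.0051 for all genes. Next after Vha100-4 came Vha26 at -0.54 ± 0.17 (adjusted p = 0.0779) and Vha16-1 at -0.61 ± 0.19 (adjusted p = 0.0792), neither called by edgeR. DESeq2 called Vha26 (adjusted p = 0.0142), Vha16-1 (0.0176) and Vha44 (0.0242) beside Vha100-4, and edgeR called Vha26 and Vha16-1 with a filter of 5 CPM (0.0431 and 0.0446) and with the cuticle covariate (0.0402 and 0.0396). With the coverage ratio as a covariate 0 were called by edgeR (1 higher and 1 lower at an unadjusted p below 0.05) and the median was -0.07; calls over all genes then went from 692 to 218.

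Vha100-4 was called in all 5 comparisons, and no other pump gene in more than 1. It encodes a subunit a reported from the copper cell region of the larval midgut. Wild-type libraries had 40.6, 44.3 and 40.8 CPM on low sugar and 59.1, 72.3 and 70.7 on high sugar. The mlx1 libraries had 60.2, 54.9 and 77.8 CPM on low sugar and 47.5, 50.7 and 36.1 on high sugar. The order of the group means was wild type high sugar (67.4 ± 7.2), mutant low sugar (64.3 ± 12), mutant high sugar (44.8 ± 7.67) and wild type low sugar (41.9 ± 2.07). The upper 2 groups overlapped each other, as did the lower 2, and no library of the upper pair fell to the level of the lower pair.

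In wild type Vha100-4 was 1.61-fold higher on high sugar (log2 0.69 ± 0.15, 95% interval 0.33 to 1.04, adjusted p = 0.00805), and in the mutants the log2 difference was -0.52 ± 0.15 (0.697-fold, adjusted p = 0.0237). The difference between those responses was -1.21 ± 0.22 (95% interval -1.71 to -0.7, adjusted p = 0.00886). Between genotypes it was higher in mutants on low sugar (0.62 ± 0.15, adjusted p = 0.0492, but 0.0788 with the replicate block) and lower in mutants on high sugar (-0.59 ± 0.15, adjusted p = 0.0243). The interaction was called in 21 of 22 alternatives, from -1.35 to -1.05, including each of the 12 that left out 1 library; with the coverage covariate it was -1.1 (adjusted p = 0.0646). The genotype difference on low sugar was called in 7 of 23 alternatives and lost without any 1 of 10 libraries. On high sugar that difference was called in 17 of 23, and lost without wild type high sugar B or C or mlx1 high sugar A or C; the diet difference in the mutants was lost without mlx1 low sugar C or mlx1 high sugar C.

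**Figure D4:**
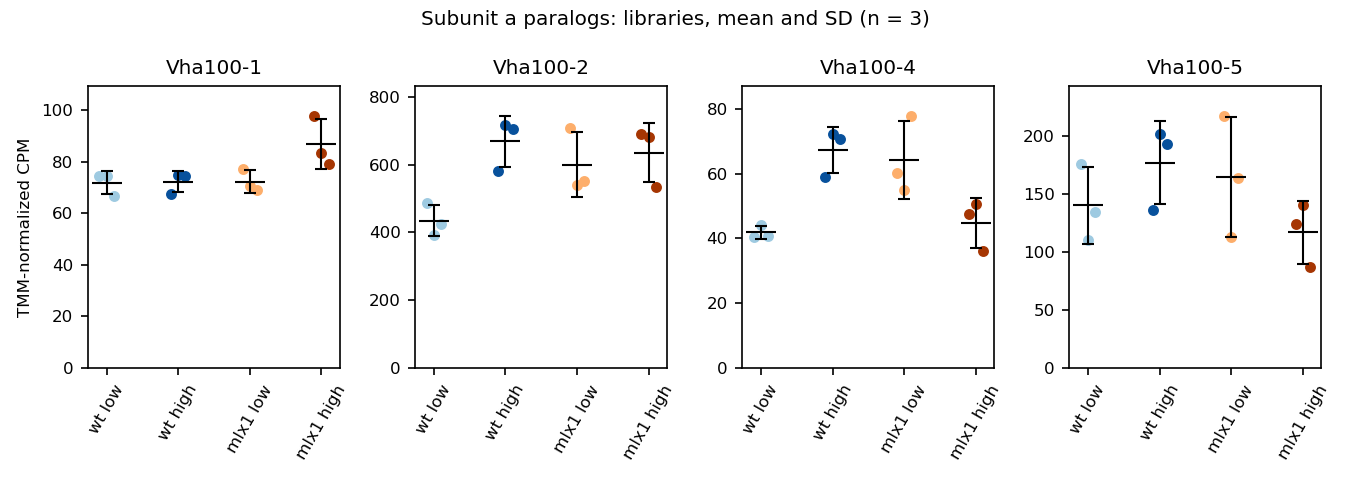
TMM-scaled CPM of the 4 tested subunit a paralogs in each library (points), with group mean and SD (n = 3); each panel has its own axis from 0. Vha100-4 is high in wild type on high sugar and mlx1 on low sugar and low in the other groups, while Vha100-2 is lowest in wild type on low sugar.

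The other subunit a genes give the comparison. Vha100-2 lies directly upstream of Vha100-4 on the minus strand of chromosome arm 3R, from 14216045 to 14224891 against 14212563 to 14215527 in the table's coordinates, whose genome build is not given in the sources used here. Its mutant values were 710, 539 and 552 CPM on low and 691, 682 and 535 on high sugar (log2 0.08 ± 0.15, adjusted p = 0.716), and its interaction was -0.54 ± 0.21 (adjusted p = 0.139). Its mutant groups overlapped, unlike those of Vha100-4. Vha100-5 had 140 ± 33.3 and 177 ± 36.1 CPM in wild type and 165 ± 52.4 and 117 ± 27.2 in mutants, with a wide spread and an interaction of -0.84 ± 0.38 (adjusted p = 0.213). Vha100-1 had 71.9 ± 4.49 and 72.3 ± 4.12 CPM in wild type and 72.2 ± 4.41 and 86.8 ± 9.65 in mutants (mutant diet difference 0.27 ± 0.1, adjusted p = 0.0719). Whether Vha100-4 differed from its paralogs in response was not tested as such.

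Vha100-4 has 4 exon entries. Entry 3, which holds most of its counts, had 31.3, 34.9 and 27.3 CPM in wild type on low sugar and 44.2, 51.6 and 52.6 on high sugar, and 43, 40.1 and 56.4 against 33.5, 35 and 24.6 in mutants. Entry 4, at the 5′ end, had 1.57 ± 0.225 and 4.73 ± 0.753 CPM in wild type and 3.44 ± 0.555 and 1.66 ± 0.619 in mutants. The interaction value was -2.6 for entry 4, -1.25 for entry 3, -0.99 for entry 2 and 0.12 for entry 1, which is at the 3′ end and overlaps another gene. Tests of entry usage within the gene called none of the 4 entries in any comparison. On the last non-overlapping entry alone, entry 2, the interaction of the gene was -1.13 (adjusted p = 0.0475).

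Entry usage was tested for 79 pump entries, and in the wild-type diet comparison 1 was called, beside 0.0889% of all entries tested; none was called in the other 4. It was entry 10 of Vha44, in the middle of the gene (chromosome arm 2R, minus strand, 12216922 to 12217903 in the table's coordinates), which contains entry 11, at 0 counts in all libraries. It had 11.9, 16.2 and 11.7 CPM on low and 7.54, 8.06 and 7.06 on high sugar in wild type, and 7.65, 10.1 and 9.4 against 9.08, 8.38 and 8.93 in mutants. The wild-type groups did not overlap, and the entry was lower where the gene as a whole was higher. Relative to the rest of the gene it differed by -0.85 (adjusted p = 0.00968, diffSpliceDGE). The neighbouring entry 9 differed by -0.69 (adjusted p = 0.149), while entries 12 and 13 upstream had entry differences of 0.62 and 0.89. The call for entry 10 was lost without wild type low sugar B (adjusted p = 0.682), high sugar B (0.136) or high sugar C (0.213), and with the coverage covariate (-0.66, adjusted p = 0.422).

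**Figure D5:**
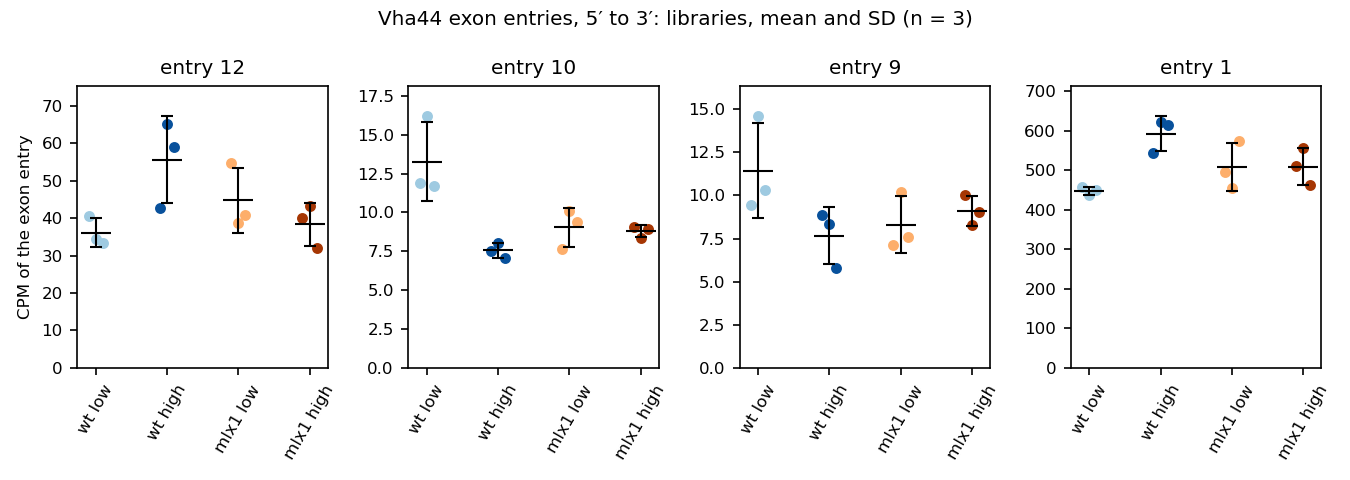
CPM of 4 exon entries of Vha44 in each library (points) with group mean and SD (n = 3), from the 5′ side (entry 12) to the 3′ end (entry 1); each panel has its own axis from 0. In wild type entries 12 and 1 are higher on high sugar, and entry 10 is lower, from 13.3 ± 2.56 to 7.55 ± 0.496 CPM.

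Genes that work beside the pump were read from lists. Of 7 tested accessory and assembly genes (8 listed, 3 of them pump paralogs or accessory genes already counted) 0 were called by edgeR in the wild-type diet comparison (3 higher at an unadjusted p below 0.05, and 2 called higher by DESeq2) and the median was 0.29; in mutants CG5969 alone was called, at -0.54 ± 0.13 (adjusted p = 0.00822). Among 22 tested lysosomal genes, whose compartments the pump acidifies, 7 rose and 1 fell in wild type (median 0.24), led by Lamp1 (0.71 ± 0.1, adjusted p = 0.000545), and 11 rose and 0 fell in mutants (median 0.41), where the pump median was -0.07; the shares over all genes are those given for each diet comparison above. With the coverage covariate 1 lysosomal gene rose and 0 fell in wild type (median 0.08), and 11 rose and 0 fell in mutants (median 0.46). The pump medians in that fit were 0.09 in wild type and 0.02 in mutants. Of 20 tested genes of TORC1 and Mitf, 4 rose and 1 fell in wild type. Mitf, the transcription factor known to drive pump genes in flies, had 49.2, 39.8 and 48.6 CPM on low and 56, 59.1 and 63.8 on high sugar in wild type, and 67.6, 58.5 and 63.5 against 64.9, 65 and 63.6 in mutants. The wild-type low sugar group stood below the 3 others, without overlap; Mitf differed by 0.38 ± 0.1 between diets in wild type (adjusted p = 0.0204) and by 0.46 ± 0.1 between genotypes on low sugar (adjusted p = 0.0289). With the coverage covariate these were 0.31 (adjusted p = 0.113) and 0.41 (adjusted p = 0.082). The mitochondrial ATP synthase, a related rotary enzyme that runs the other way, had 0 of 11 tested genes called in the wild-type diet comparison by edgeR and by DESeq2 (1 at an unadjusted p below 0.05), with a median of -0.04.

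Markers of tissues rich in the pump are given beside it. The 3 copper cell genes lab, Ptx1 and dve were all tested, and their summed level was 103 to 109 CPM in wild type on low, 123 to 129 on high sugar, 113 to 122 in mutants on low and 128 to 135 on high sugar. The homeobox gene lab, needed for copper cell identity, had 9.02, 7.44 and 9.71 CPM on low and 14.5, 14.4 and 12.4 on high sugar in wild type (log2 0.66 ± 0.14, adjusted p = 0.00624). In mutants it had 12.5, 12.5 and 10.9 against 11, 13.1 and 12.3 (0.02 ± 0.14), with an interaction of -0.64 ± 0.2 (adjusted p = 0.0738). Like Vha100-4, lab was lowest in wild type on low sugar, but its mutant libraries on high sugar all lay above that group. With the coverage covariate the wild-type value of lab was 0.61 (adjusted p = 0.0369). Ptx1 rose in wild type too (0.33 ± 0.08, adjusted p = 0.0141), a call lost with the coverage covariate (0.26, adjusted p = 0.0855), and dve differed by 0.06 ± 0.1. Of 13 tested enterocyte genes 9 rose and 1 fell in wild type (summed level 4230 to 5080 CPM on low, 5460 to 7230 on high sugar), and of 15 tubule genes 4 rose and 1 fell. Over all tested genes 11.5% rose and 11.6% fell in that comparison. The summed tubule level was 796 to 1010 CPM on low and 897 to 1040 on high sugar in wild type, and 1260 to 1500 and 1220 to 1420 in mutants. Uro, the urate oxidase gene, carried the difference between genotypes, with 249 ± 60.1 and 100 ± 13.6 CPM in wild type and 748 ± 71.3 and 605 ± 78.4 in mutants. Summed over the other 14 tubule genes, wild type had 578 to 696 and 796 to 951 CPM, and mutants had 586 to 726 and 660 to 743. Of 11 neuronal genes 0 rose and 1 fell in the wild-type diet comparison, beside the same shares over all genes. Of 4 tested male germline genes 0 were called in that comparison by edgeR and DESeq2 (1 lower at an unadjusted p below 0.05 in edgeR). The part of these tissues in the pump values was not tested.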

How the data were processed

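Poly(A) RNA of 12 libraries is held in 1 deposited table of read counts per exon entry, not normalized. The submitters' processing notes name HTSeq 0.6.1, BWA 0.5.9 and SAMtools, in no stated order. Which build, annotation and strand setting were used is not given in the sources used here. Columns were assigned to samples by name. Entries were summed per gene name; 42 entries without one (at most 0.0148% of a library) were left out. Strand was taken by gene name from the Ensembl annotation, and older names were matched through RefSeq synonyms. Counts were filtered with filterByExpr, scaled by TMM and tested with edgeR 4.0.16 (R 4.3.3, robust quasi-likelihood, 4 groups in 1 model, 8 residual degrees of freedom), Benjamini-Hochberg adjusted over 10045 genes; entry usage used diffSpliceDGE. The pipeline was tested on simulated data. Levels are CPM per kilobase of merged exon length. Intervals are 95% intervals of the fit. The alternatives were 8 planned and 3 added after seeing the data (single entries, coverage), DESeq2 1.42.0 among them, and 12 that left out 1 library. All pump genes are accounted for; genes called in a comparison and the leading paralog of each subunit are given in most detail, and of each list at most 4 called genes with the smallest p. Deviations from group means correlated above 0.1 for all 3 same-letter pairs between the genotypes on low sugar (0.74, 0.69 and 0.17), so the block value is given there. In no other comparison did all 3 pairs pass. Pairs of unlike letters were not compared, so whether the letters A, B and C pair those libraries was not tested. The members and lists were chosen with earlier results of these data known.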

Additional observations from a re-analysis of the deposited data

Results flagged for a closer look

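The diet response of Vha100-4 differed between genotypes by -1.21 on the log2 scale (mutant minus wild type; edgeR adjusted p = 0.00886, a test of the difference itself). Its responses were 0.69 ± 0.15 in wild type and -0.52 ± 0.15 in the mutants, and in each genotype all 3 libraries of one diet lay on one side of all 3 of the other. With the coverage covariate, added after seeing the data, the value was -1.1 (adjusted p = 0.0646).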

How the results depend on the processing

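The number of pump genes called in the wild-type diet comparison, 7 of 21, became 4 with the replicate block, 4 with the cuticle covariate and 0 with the coverage covariate, and ran from 1 to 11 when 1 library was left out. In mutants the 2 calls became 1 with no filter, a filter of 5 CPM, the replicate block, the compared libraries only and without overlapping entries of either kind, 0 with the 3′ entry only, and 3 with DESeq2 or the cuticle covariate, from 0 to 2 with 1 library left out. On low sugar the 1 genotype call became 2 with DESeq2 and 0 with a filter of 5 CPM, the replicate block, no entries overlapping another gene, the compared libraries only, the 3′ entry or the coverage covariate, from 0 to 1 with 1 library left out. On high sugar it became 3 with the cuticle covariate and 0 with the 3′ entry, from 0 to 1 with 1 library left out; with the coverage covariate the 1 call was Vha100-1, higher (0.36, adjusted p = 0.043). The interaction count of 1 became 4 with DESeq2, 3 with a filter of 5 CPM, 3 with the cuticle covariate and 0 with the coverage covariate. Over all genes the count went from 692 to 1202 of 9256 with DESeq2 and 868 of 8426 with that filter. It went to 1375 of 10045 with the cuticle covariate and 218 with the coverage covariate. With 1 library left out the pump count ran from 1 to 5, and the count over all genes from 271 to 1021. Of 2394 gene values under alternatives 2275 kept their side of the threshold, 86 lost a call, 33 gained one and 0 reversed a called direction. Most of the 2394 belong to genes not called in the main fit, which had no call to lose, so the total does not measure how stable the calls were. In the wild-type diet comparison, with 7 called genes refitted under 23 alternatives each, 44 values lost a call and 13 gained one. Calls over all genes moved too. In the wild-type diet comparison 2318 became 2376 with the replicate block, 2996 with the cuticle covariate and 1751 with the coverage covariate. With 1 library left out that count ran from 1423 to 2755. With the cuticle covariate 2941 became 4124 for the diets in mutants, and 1392 became 2246 between genotypes on high sugar. The causes were not tested.

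Outside the genotype comparison on low sugar no comparison had all 3 same-letter pairs above 0.1. Over all groups, deviations from group means correlated above 0.1 in 8 of 18 same-letter pairs (from -0.54 to 0.74). The replicate block gave counts of 4, 1, 0, 1 and 1 in the comparisons in the order above, beside 2376, 2936, 336, 1343 and 534 of 10045 genes.

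Levels per kilobase depend on the overlapping entries, and low-count paralogs could not be tested at 8923055 to 12506335 counts per library.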
